A study of Sus scrofa with 6 samples.

Results

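Imprinted genes are transcribed mainly from the copy inherited from one parent, and many of them act on growth of the fetus, the placenta and the fat depots. In human and mouse, PEG3, PEG10, MEST, PLAGL1, NNAT and SGCE are mainly expressed from the paternal copy, while CDKN1C, MEG3 and H19 are mainly expressed from the maternal copy. In most mouse tissues, GRB10 is mainly expressed from the maternal copy. In mouse adipose tissue, Mest is known for its rise during fat expansion, and GRB10 is known as an adaptor that restrains signalling of the insulin and IGF1 receptors. These 10 imprinted growth regulators were described here in porcine preadipocytes, with and without TGF-β1. They were chosen by gene symbol in the deposited mRNA table of 22164 genes, 18088 of which carried a symbol. A row was found for 7 of the 10 (SGCE, PEG10, GRB10, MEST, PLAGL1, PEG3 and NNAT), each with a single row. No row carried the symbol or the RefSeq LOC number of CDKN1C, an inhibitor of cyclin-dependent kinases, or of MEG3, a noncoding RNA. No row carried the symbol of H19, another noncoding RNA. These 3 genes are not analysed here.

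The cells were preadipocytes from the subcutaneous adipose tissue of five-day-old pigs, which the labels name as Junmu white pigs with a different number for each sample. The 3 NC samples, the negative control, received citric acid at 10 mM, and the 3 TGF-β1 samples were given 10 ng/mL of recombinant human TGF-β1, both for 48 h. The paper describes the samples of a group as biological replicates, and the labels do not say whether they came from separate animals. Values are FPKM, which corrects the fragments of a gene for gene length and for the sequencing depth of its sample. It does not make the sample totals equal. Total FPKM was 418531 to 448468 in the NC samples and 392976 to 404489 in the TGF-β1 samples, so the groups did not overlap. Small differences between samples therefore depend on the scaling, and other scalings were tried. FPKM adds the RNA of both parental copies, so the parental origin of the RNA was not measured.

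Depth was estimated from the steps between low FPKM values, where 20 to 26 genes per sample set the estimate. Relative to NC sample 1, set to 1, it was 0.778 to 0.881 in the other NC samples and 0.740 to 0.842 in the TGF-β1 samples. The paper reports more raw reads for TGF-β1 than for the control, an order that this rough estimate does not show. All 10 measured preadipocyte and stromal markers were detected, with a summed FPKM of 2700.4 to 3177 in NC and 3584 to 3843 with TGF-β1. The sum was mostly COL1A2 and COL1A1, and 5 of the 10, CD34 among them, had log2 fold changes below 0, while DLK1, an imprinted marker of preadipocytes, had no row under its symbol. The 5 measured adipocyte markers summed to 0.562 to 1.96 in NC and 0.604 to 1.55 with TGF-β1. LPL and FABP4, the others of the 7 listed, were not found, so the sum leaves them out. Macrophage markers (5 measured of 6, none at 0 in all samples, CD68 not found) summed to 31.0, 86.9 and 113 in NC and to 13.6, 47.6 and 71.4 with TGF-β1, lowest in the sample numbered 1 of each group. The 6 epithelial markers summed to 0.0378 to 0.250 in NC and 3.58 to 5.00 with TGF-β1. The 4 that could be tested were higher with TGF-β1, with groups that did not overlap. KRT5 and KRT8 passed the test described below (adjusted p = 0.00029 and 0.073 from limma).

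With TGF-β1, no imprinted growth regulator passed the test, and only 0.096% of the 17708 tested genes did. The values of TGF-β1 and NC overlapped for all 7, where 18.1% of all tested genes had groups that did not overlap. The genes were placed in 3 tiers by mean FPKM, with the same genes in each tier in both groups. SGCE, PEG10 and GRB10 had mean FPKM of 53.3, 46.2 and 29.5 over the 6 samples, MEST had 8.70, and PLAGL1, PEG3 and NNAT had 1.79, 0.637 and 0.421. SGCE, PEG10 and GRB10 together held 89.0% to 92.9% of the FPKM summed over the 7 genes in a sample. By mean FPKM, SGCE stood within the top 4.67% of all genes in the table, PEG10 within 5.43%, GRB10 within 8.90%, MEST within 25.4%, PLAGL1 within 50.5%, PEG3 within 61.8% and NNAT within 66.4%. The ranges over the 6 samples overlapped between SGCE and PEG10, between PEG10 and GRB10, and between PEG3 and NNAT. The range of MEST lay apart from those of GRB10 and PLAGL1, and the range of PLAGL1 lay apart from that of PEG3.

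**Figure D1:**
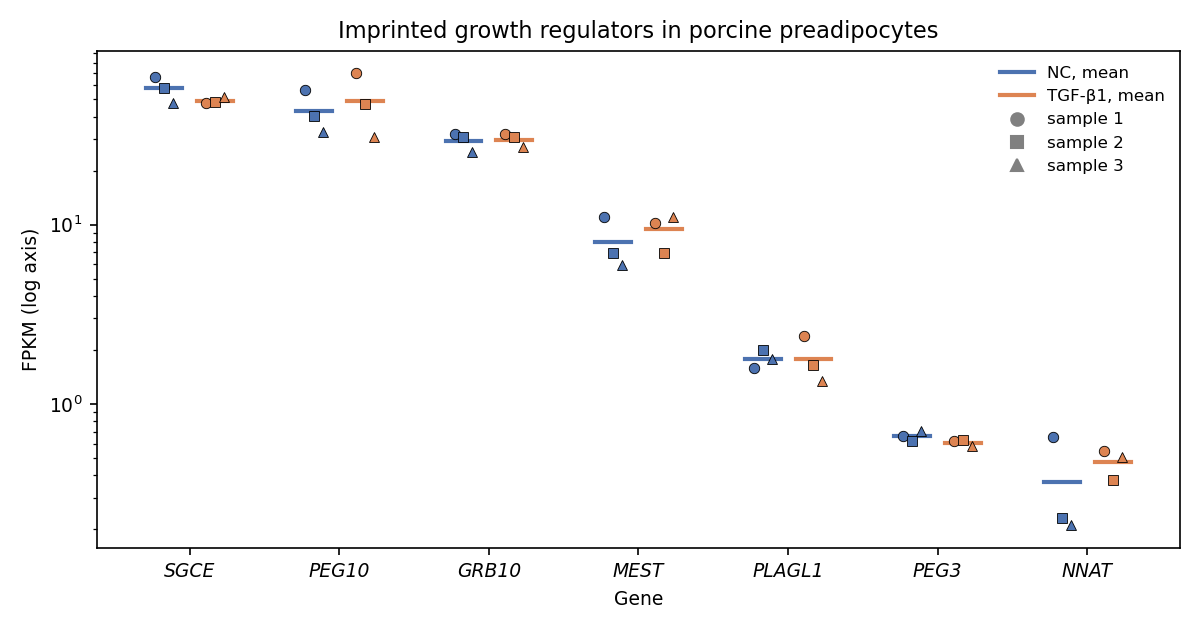
FPKM (log axis) of the 7 imprinted growth regulators in each of the 3 NC (blue) and 3 TGF-β1 (orange) samples, with lines at the group means and marker shapes for the sample numbers. SGCE, PEG10 and GRB10 sit between 25.3 and 69.7, MEST between 5.94 and 11.0, and PLAGL1, PEG3 and NNAT between 0.211 and 2.39, and the groups overlap for every gene.

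SGCE and PEG10 lie next to each other in the pig RefSeq annotation, as they do in human and mouse, where both are read from the paternal copy in opposite directions. SGCE (gene19082 in the files) encodes epsilon-sarcoglycan, a membrane protein of the dystrophin-associated complex. Its FPKM was 66.9, 58.0 and 47.6 in NC samples 1, 2 and 3 and 47.4, 48.5 and 51.1 with TGF-β1. The TGF-β1 samples lay close together, and NC samples 1 and 2 were above all of them while NC sample 3 was among them. The mean was 57.5 ± 9.66 in NC against 49.0 ± 1.91 after TGF-β1 (SD, n = 3 per group), which is a log2 fold change of -0.22 (SE, the standard error, 0.15, adjusted p = 0.649 from limma). The 95% interval of the fold ran from 0.665 to 1.11.

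PEG10 (gene19083) derives from a retrotransposon and is required for the mouse placenta. Its FPKM was 56.3, 40.2 and 32.9 in NC and 69.7, 47.0 and 30.8 with TGF-β1. The highest and the lowest values of all 6 samples were thus both in the TGF-β1 group. The mean was 43.1 ± 12.0 in NC against 49.2 ± 19.5 after TGF-β1 (SD, n = 3 per group), for a log2 fold change of 0.15 (SE 0.36, adjusted p = 0.899 from limma) and a 95% interval of the fold of 0.595 to 2.06. PEG10 varied within the groups more than its neighbour. Its residual SD on the log2 scale was 0.50, at or above that of 76.6% of the tested genes, while that of SGCE was 0.18. The ratio of SGCE to PEG10 within a sample does not depend on the scaling of the sample. It was 1.19, 1.44 and 1.45 in NC and 0.680, 1.03 and 1.66 with TGF-β1, so the ratios of the groups overlapped and the TGF-β1 group held both extremes.

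GRB10 (gene19725), the receptor adaptor, had FPKM of 31.9, 30.6 and 25.3 in NC and 31.9, 30.6 and 26.9 with TGF-β1. The values of the groups nearly coincided. The mean was 29.3 ± 3.52 in NC against 29.8 ± 2.57 after TGF-β1 (SD, n = 3 per group), for a log2 fold change of 0.03 (SE 0.13, adjusted p = 0.948 from limma). The 95% interval of the fold was 0.808 to 1.29.

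PEG10 and GRB10 were both highest in the sample numbered 1 and lowest in the sample numbered 3 of each group. They were not alone in this order. Total FPKM fell the same way, at 448468, 443129 and 418531 in NC and 404489, 399974 and 392976 with TGF-β1. Of the genes beside the members, described below, WARS and NAP1L4 also had this order in both groups, while CTSD had the opposite one. The share of all genes with this order was not counted. The summed macrophage markers were lowest in sample 1 and highest in sample 3 of each group, from 31.0 to 113 in NC and from 13.6 to 71.4 with TGF-β1. The measured endothelial markers (4 of 5, with CDH5 not found) had the same order, at 5.68, 10.6 and 13.7 in NC and 4.30, 7.32 and 9.20 with TGF-β1. That sum was nearly all PECAM1, at 5.57, 10.3 and 12.9 in NC and 4.22, 7.01 and 8.54 with TGF-β1. KDR and TEK had the same order at low FPKM, at most 0.501, while VWF was lowest in NC sample 2. The muscle markers found, DES and ACTA1, summed to 440, 367 and 277 in NC and 599, 480 and 447 with TGF-β1. The sum was mostly DES, which had the order of PEG10 and GRB10 in both groups, whereas ACTA1 was lowest in sample 2 of the TGF-β1 group, and MYOD1, MYOG, MYF5 and MYH3 were not found. Stromal markers differed between samples too. PDGFRA, DCN, LUM and CD34 rose from sample 1 to sample 3 in both groups, with PDGFRA at 67.3, 135 and 189 in NC and 70.4, 140 and 149 with TGF-β1. PI16 fell from sample 1 to sample 3 in both groups. PDGFRB, THY1, DPP4, COL1A1 and COL1A2 held neither order in both groups. The part of these cell types in the levels of PEG10 and GRB10 was not tested, and in bulk samples fewer cells of a type and less RNA per cell cannot be told apart. Without both samples numbered 1, the log2 fold change was 0.07 for PEG10 and 0.05 for GRB10, and none of the 7 genes passed.

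**Figure D2:**
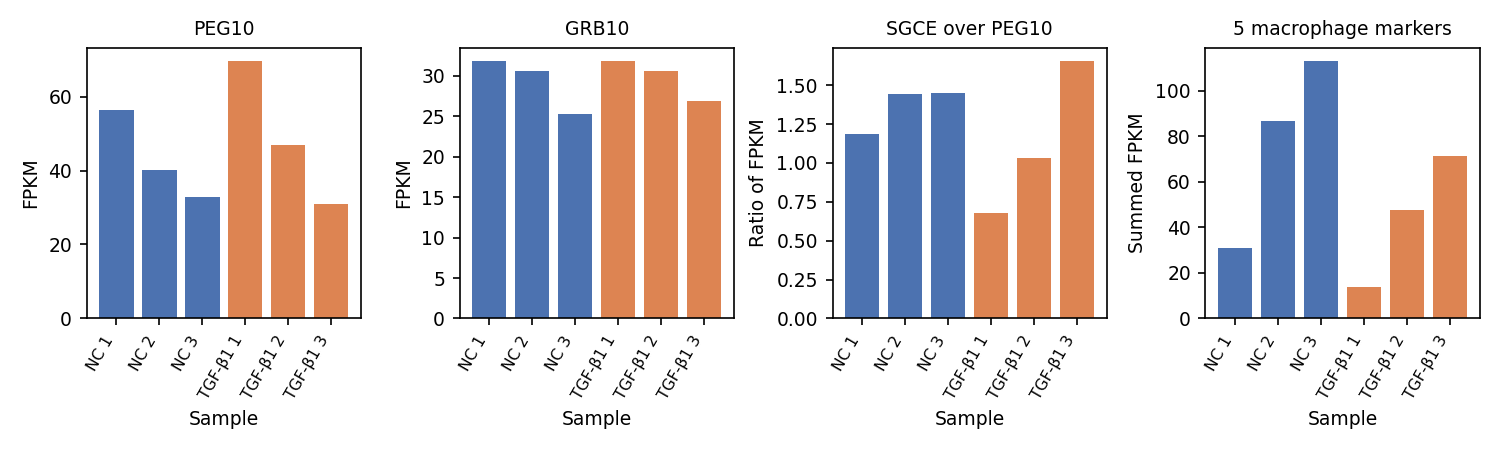
Bars give the FPKM of PEG10 and GRB10, the ratio of SGCE to PEG10 and the summed FPKM of 5 macrophage markers in each NC (blue) and TGF-β1 (orange) sample. PEG10 is highest in sample 1 of each group (56.3 and 69.7), where the macrophage markers are lowest (31.0 and 13.6). Total FPKM is also highest in sample 1 of each group.

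MEST (gene30115) encodes an enzyme of the alpha/beta hydrolase family. Its FPKM was 11.0, 6.96 and 5.94 in NC and 10.3, 6.99 and 11.0 with TGF-β1. NC sample 1 was as high as the TGF-β1 samples 1 and 3, and the other NC samples were below every TGF-β1 sample. The mean was 7.98 ± 2.70 in NC against 9.42 ± 2.14 after TGF-β1 (SD, n = 3 per group), for a log2 fold change of 0.26 (SE 0.30, adjusted p = 0.778 from limma) and a 95% interval of the fold of 0.717 to 2.00. In the pig RefSeq annotation, MEST overlaps COPG2, a coat protein gene of the Golgi, and none of the sources used here gives the strand of the reads, so reads of the overlap cannot be told apart. COPG2 had FPKM of 15.6, 16.7 and 15.7 in NC and 14.7, 14.1 and 14.6 with TGF-β1. All TGF-β1 values of COPG2 lay below all NC values, with a log2 fold change of -0.14 (SE 0.09, adjusted p = 0.623 from limma).

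PLAGL1 (gene242) encodes a zinc finger transcription factor that arrests growth, and in mouse it controls a set of other imprinted genes. Its FPKM was 1.60, 2.00 and 1.78 in NC and 2.39, 1.65 and 1.34 with TGF-β1. The TGF-β1 group held the highest and the lowest value. The mean was 1.79 ± 0.204 in NC against 1.79 ± 0.539 after TGF-β1 (SD, n = 3 per group), for a log2 fold change of -0.03 (SE 0.23, adjusted p = 0.969 from limma), and the sign turned under 3 other scalings.

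PEG3 (gene12786), a zinc finger protein of the paternally expressed group, had FPKM of 0.664, 0.623 and 0.706 in NC and 0.622, 0.627 and 0.581 with TGF-β1. The groups overlapped only because the highest TGF-β1 value, of sample 2, was just above the lowest NC value, of sample 2. PEG3 was the most even of the 7 genes, with a residual SD of 0.07 on the log2 scale. The mean was 0.664 ± 0.0416 in NC against 0.610 ± 0.0254 after TGF-β1 (SD, n = 3 per group), for a log2 fold change of -0.11 (SE 0.09, adjusted p = 0.711 from limma). This was close to the median of all tested genes, -0.10, and it turned to 0.0058 with samples scaled to the same total. The 95% interval of the fold was 0.792 to 1.09.

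NNAT (gene29445) encodes neuronatin, a small membrane protein of the endoplasmic reticulum found in brain and adipose tissue. Its FPKM was 0.659, 0.230 and 0.211 in NC and 0.545, 0.377 and 0.505 with TGF-β1. NC sample 1 was the highest of all and the other NC samples were the lowest. The mean was 0.367 ± 0.253 in NC against 0.476 ± 0.0875 after TGF-β1 (SD, n = 3 per group), for a log2 fold change of 0.42 (SE 0.38, adjusted p = 0.724 from limma) and a 95% interval of the fold of 0.689 to 2.59. At this level the added 0.1 lowers the fold change. The gene lies wholly within BLCAP in the pig RefSeq annotation, and BLCAP had FPKM of 9.79, 9.81 and 8.60 in NC and 9.02, 9.82 and 9.97 with TGF-β1. NNAT was 0.0235 to 0.0673 times BLCAP, so a small share of BLCAP reads counted to NNAT would matter to its value, and this was not tested.

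The comparison asked whether TGF-β1 changed the RNA of these genes. It used limma on log2(FPKM + 0.1) over the 17708 genes that exceeded an FPKM of 0.1 in 3 or more of the 6 samples, with Benjamini-Hochberg adjustment over all of them and the paper's threshold of 0.1. All 7 genes found passed this filter. None of the 7 passed the test, where 17 of all tested genes did (0.0960%), and none had an unadjusted p below 0.05, where 1768 did (9.98%). None had groups that did not overlap, where 3211 of the tested genes did (18.1%). The log2 fold changes of the 7 ran from -0.22 to 0.42 with a median of 0.03, and 4 were above 0, beside a median of -0.10 over all tested genes. The widest intervals, those of NNAT, PEG10 and MEST, still held a 2-fold increase, while those of SGCE, GRB10, PLAGL1 and PEG3 did not.

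**Figure D3:**
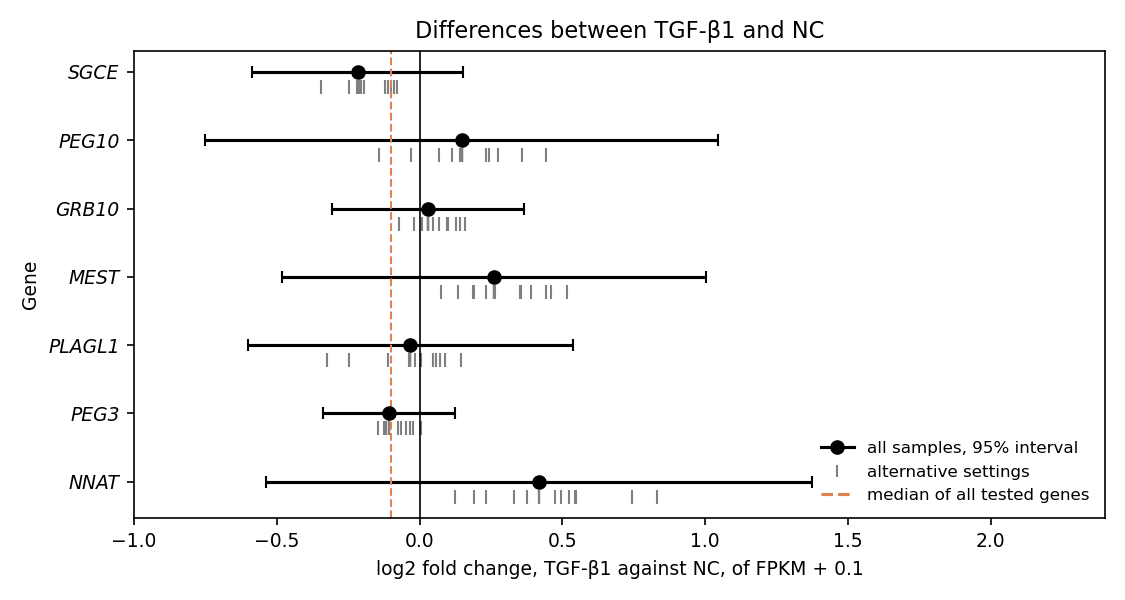
Log2 fold change of TGF-β1 against NC for the 7 genes, with black points and bars for the estimate and its 95% interval and grey ticks for the alternative settings. Every interval includes 0, from the narrow one of PEG3 (-0.34 to 0.13) to the wide one of NNAT (-0.54 to 1.37).

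Of 40 other genes imprinted in human or mouse, 25 were found and 20 could be tested. None passed, and 1 had an unadjusted p below 0.05 (9.98% of all tested genes). The groups of 2, DIO3 and COPG2, did not overlap (18.1% of all tested genes). A log2 fold change below 0 was seen for 15, where 66.9% of all tested genes had one, and the median was -0.12. GNAS, which encodes the stimulatory G protein alpha subunit and has several promoters, had 2 rows. The abundant row (gene29746) had FPKM of 154, 151 and 145 in NC and 146, 147 and 147 with TGF-β1, with a log2 fold change of -0.03 (SE 0.08, adjusted p = 0.904 from limma). The other row (gene29744) had FPKM of 1.34, 11.0 and 1.47 in NC and 0.0171, 0.250 and 0.770 with TGF-β1. All its TGF-β1 values were below all NC values, and NC sample 2 held most of the NC signal (adjusted p = 0.458 from limma). The study listed this row on the same samples, so its direction is no independent evidence. The other abundant genes of this list were SNRPN, a splicing protein, TFPI2, an inhibitor of serine proteases, and UBE3A, a ubiquitin ligase. Their log2 fold changes were -0.34, 0.07 and -0.16. Among genes named after their values were seen, IGF2, the fetal growth factor beside H19, had an FPKM of 0.398 to 0.727 in the 6 samples, and IGF2R, the receptor that clears it, had 5.84 to 8.22. DIO3, which inactivates thyroid hormone and lies in the MEG3 cluster of human and mouse, had 0.215, 0.211 and 0.359 in NC and 0.0619, 0.172 and 0.102 with TGF-β1. Its groups did not overlap (log2 fold change -0.78, adjusted p = 0.455 from limma), at values near the filter of 0.1.

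Of 25 genes that lie beside the members in the human clusters, 10 of the 13 found were tested. None passed or had an unadjusted p below 0.05, where 0.096% and 9.98% of all tested genes did. The median log2 fold change was -0.10. CASD1, next to SGCE in human and named after its values were seen, had FPKM of 9.66, 10.0 and 8.24 in NC and 7.75, 8.62 and 8.14 with TGF-β1, and the groups overlapped. The abundant genes of this list, the tRNA synthetase WARS, the histone chaperone NAP1L4, the splicing factor SF3B5 and the protease CTSD, had log2 fold changes of -0.08, -0.13, -0.11 and -0.16.

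SGCE belongs to a complex with other sarcoglycans and dystroglycan, of which 11 genes were tested and none passed. The median log2 fold change was 0.06, and 2 of the 11 had an unadjusted p below 0.05 (9.98% of all tested genes) with groups that did not overlap, a share near the 18.1% of all tested genes. One of them, SGCA, is the alpha-sarcoglycan of striated muscle, in whose place SGCE is found in other tissues. SGCA, named after its values were seen, had FPKM of 13.2, 13.9 and 11.7 in NC and 7.32, 7.85 and 8.45 with TGF-β1. Every TGF-β1 sample was below every NC sample, with a log2 fold change of -0.71 (SE 0.11, adjusted p = 0.235 from limma). The other was SNTB2, a syntrophin, also named after its values were seen, at -0.34 (adjusted p = 0.479 from limma). The abundant members SGCB, SGCD, UTRN and DAG1 had log2 fold changes of 0.09, -0.11, -0.14 and 0.17.

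GRB10 acts on insulin and IGF receptor signalling, of which 13 genes were tested and none passed. The median log2 fold change was -0.22, with 11 of 13 below 0 (66.9% of all tested genes were), and 3 genes had groups that did not overlap (18.1% of all tested genes) and an unadjusted p below 0.05 (9.98%). AKT2, a kinase downstream of the insulin receptor, had FPKM of 35.4, 36.1 and 22.0 in NC and 20.1, 19.8 and 18.2 with TGF-β1. NC sample 3 stood nearer to the TGF-β1 samples than to the other NC samples (log2 fold change -0.65, adjusted p = 0.457 from limma). SOS1, an exchange factor for Ras, and GIGYF2, which binds GRB10, were named after their values were seen, with log2 fold changes of -0.76 (adjusted p = 0.457 from limma) and -0.25 (adjusted p = 0.474 from limma). The adaptors SHC1 and GRB2 were also abundant, with log2 fold changes of -0.01 each.

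CDKN1C was not found, and its relatives CDKN1A and CDKN1B had log2 fold changes of -0.15 and -0.07. Of the 15 genes for CDK inhibitors and for cyclins and kinases of G1, 14 were tested, with a median of -0.07. Not 1 of them passed or had an unadjusted p below 0.05, where 0.096% and 9.98% of all tested genes did. CDKN1A had FPKM of 25.2, 26.7 and 28.4 in NC and 29.8, 15.5 and 30.5 with TGF-β1, where TGF-β1 sample 2 alone was low. CDK4, a kinase of G1, and CCND2, a D-type cyclin, had log2 fold changes of -0.07 and -0.01. For relatives of PLAGL1 and PEG10, 3 genes were tested and none passed. PLAG1 and PLAGL2, the closest relatives of PLAGL1, had FPKM of 0.0887 to 0.325 and 0.0621 to 0.236 over the 6 samples, below the 1.34 to 2.39 of PLAGL1. LDOC1, which like PEG10 derives from a retrotransposon, had 1.39 to 2.51.

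**Figure D4:**
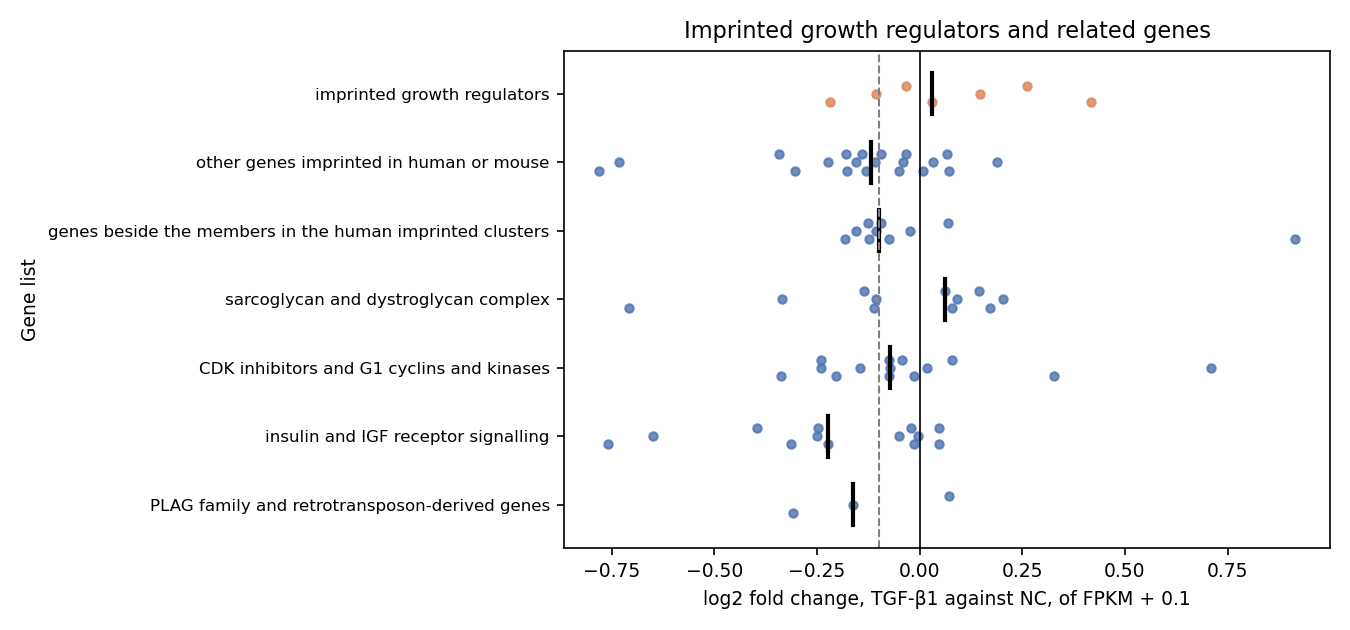
Log2 fold change of TGF-β1 against NC for each tested gene of the 7 imprinted growth regulators (orange) and of 6 related lists (blue), with black bars at the list medians and a dashed line at the median of all tested genes, -0.10. The imprinted growth regulators span -0.22 to 0.42, and the list medians run from -0.22 to 0.06.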

How the data were processed

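RNA of 3 NC and 3 TGF-β1 samples was sequenced after removal of ribosomal RNA. The deposited values are FPKM per gene, which the authors calculated with StringTie 1.3.1 from reads aligned to Sus scrofa 10.2. No source used here names the aligner. Read counts were not used here, so no count model was fitted. The lncRNA tables, whose IDs carry no gene names, were not used.

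Groups came from the sample titles. Rows were matched by symbol, or by the LOC number of a RefSeq table of another assembly (Sscrofa11.1), used for names, neighbours and overlaps only. Where a symbol repeated, the row with the highest mean was kept. The test was limma 3.58.1 in R 4.3.3 with default parameters, tried on simulated data first. Relative depth came from the commonest ratio of FPKM values below 0.5, a whole number of fragments.

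Members and lists were chosen with earlier results of these data known. From each list, up to 4 genes with the highest means and any that passed were named. Others are marked as named after their values were seen. The result of 1 gene under this rule is not reported here. No sequences are printed, since the reference tables used here hold none. Plots were made in Python 3.11.15 with matplotlib 3.10.9.

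The alternatives were pseudocounts of 1 and 0.01, no filter, genes averaging an FPKM of 1 or more, quantile, median-ratio and total scaling, a trended robust fit, an adjusted p of 0.05, the replicate number as a block, the sum of repeated rows, and leaving out each sample. Leaving out both samples numbered 1 was chosen after seeing the data.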

Additional observations from a re-analysis of the deposited data

How the results depend on the processing

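None of the 7 members passed limma's test under any of the 18 alternatives. Nor did any gene of the related lists, counting 1 row per symbol and leaving out the cell type markers. The replicate block and the fit without both samples numbered 1 are among these alternatives. The replicate numbers were not taken as pairs in the main fit. Deviations from the group means of samples 1, 2 and 3 correlated across genes at 0.251, 0.004 and 0.196 between the groups. NC samples 1 and 3 correlated best with their own number, and NC sample 2 did not. NC sample 3 with TGF-β1 sample 1 gave -0.21, and NC sample 1 with TGF-β1 sample 3 gave -0.235. Deviations within a group sum to 0, so these correlations are not independent and cannot settle whether the numbers are pairs. With the replicate block 3 genes of all passed in place of 17, and 0 of the 7 members did. The block lowered the median residual SD on the log2 scale from 0.2346 to 0.173, and it leaves the fit fewer degrees of freedom. Genes with an unadjusted p below 0.05 from limma numbered 645 higher and 1671 lower with the block, against 482 and 1286 without it. SGCE stayed below 0 (-0.35 to -0.08) and MEST (0.08 to 0.52) and NNAT (0.12 to 0.83) above 0 under every alternative that tested them. PLAGL1 turned to 0.071 with quantile normalization, 0.059 with median-ratio scaling and 0.090 with scaling to the same total, and PEG3 turned to 0.0058 with the last. These scalings moved the median of all genes from -0.10 to -0.01, -0.01 and 0.02. Leaving out single samples gave -0.14 to 0.44 for PEG10, -0.072 to 0.10 for GRB10 and -0.25 to 0.15 for PLAGL1, which was at -0.32 without both samples numbered 1. PEG10 was at -0.03 without NC replicate 3 and -0.14 without TGF-β1 replicate 1, and GRB10 was at -0.072 and -0.020. PLAGL1 was at 0.046 without NC replicate 2 and at 0.0050 and 0.15 without TGF-β1 replicates 2 and 3. The members whose groups did not overlap numbered 0 to 2 of 7 when single samples were left out, where 24.1% to 34.2% of all tested genes did not overlap. These were NNAT and MEST without NC replicate 1, PEG3 without NC replicate 2 or TGF-β1 replicate 2, and SGCE without NC replicate 3. Without both samples numbered 1 there were 3 (NNAT, MEST and PLAGL1), where 42.2% of all tested genes did not overlap, against 18.1% with all samples. The cause of these changes beyond the smaller groups was not tested. The number of samples limits the precision, and PEG3 and NNAT rest on low FPKM values.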
